A study of Homo sapiens with 29 samples.

Results

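The serpins were taken as every row of the deposited gene count table whose symbol is SERPIN followed by a clade letter from A to I and a number. This gave 36 rows of 60675, carrying 35 symbols, because SERPINA3 stood on 2 rows with different Ensembl identifiers. The additional SERPINA3 row, ENSG00000273259, is called AL049839.2 in GENCODE release 29 and is given here by its identifier. Of the 36 rows, 21 had enough counts to be tested and 19 reached a group mean of at least 1 CPM (a read count scaled to the size of its library) in at least 1 of the 10 groups. 3 rows, SERPINA10, SERPINB11 and SERPINB13, had no count in any library.

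Serpins are a superfamily of folded proteins that act mostly as suicide inhibitors: a protease cuts the serpin's exposed reactive loop, the loop inserts into the body of the serpin, and the protease is trapped in a covalent complex that receptors of the LDL receptor family clear from the cell surface. Secreted members control the proteases of clotting, fibrinolysis, complement and inflammation. Members of clade B stay mainly inside cells and guard against leaked proteases, and a few serpins have lost inhibition and serve as chaperones or carriers. In melanoma the family is best known through the inhibitors of plasminogen activators, which act on the same pericellular proteolysis that tumour cells use to cross matrix.

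Polyadenylated RNA was sequenced from WM239A, an established human melanoma line from a metastasis, as 29 libraries in 10 groups. One group was vector cells without drug, and all other groups were the same line overexpressing BRAF-V600E, the activated kinase that LGX818 (encorafenib) inhibits. Cells with BRAF-V600E were sampled without drug, after 20 h of LGX818, and after 7 days of it (week 1), always at 500 nM. They then followed either continuous drug to 14, 21 and 28 days (weeks 2, 3 and 4) or an intermittent schedule of 7 days on drug and 7 days in DMSO. The intermittent groups were the first drug holiday at week 2, the rechallenge with drug at week 3 and the second holiday at week 4. The count table names the 3 week 3 intermittent columns drug-off, whereas the sample labels put these samples on drug. They were grouped by the labels. Their summed fibroblast markers, 709 to 839 CPM, stood apart from the 53.1 to 56.7 CPM of the holiday libraries. Each group had 3 libraries except week 4 continuous, which had 2. The labels do not say whether the replicates came from separate cultures, so the p-values measure the spread between these libraries, which may be technical. The labels also do not say which promoter or vector carried BRAF-V600E or whether the cells were 1 clone. The series is titled for intermittent treatment and for the sensitivity of the cells to rechallenge.

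Libraries held 22934039 to 35804978 counted reads, and the serpins together took 0.168% to 1.564% of them. BRAF transcripts stood at 37.6 to 43.2 CPM in vector cells and 889 to 902 CPM in untreated BRAF-V600E cells, so the labels of both matched. BRAF was 679 to 1159 CPM in the groups on drug and 3168 to 3495 CPM in the 6 holiday libraries, and the part of that level in the serpin results was not tested. Summed melanocytic markers (7 genes) ranged from 317 CPM on continuous drug at week 2 to 8228 CPM at 20 h, and none was at 0 in any group. Summed fibroblast markers (8 genes) were 53.1 to 56.7 CPM in the holidays, 54.9 to 56.6 CPM in untreated BRAF-V600E cells and 2352 to 2597 CPM at week 4 on continuous drug. Endothelial markers (4 genes) summed to 17.9 to 30.1 CPM in the holidays, with CDH5 at 0 in both, 8.2 to 9.92 CPM in vector cells, 8.75 to 10.9 CPM in untreated BRAF-V600E cells and 0.311 to 1.67 CPM in all groups on drug. Leukocyte markers (5 genes) summed to at most 11.9 CPM in any library, and epithelial markers (6 genes) to between 15.6 and 143 CPM. The part of these markers in the serpin results was not tested. Replicate 3 of week 2 continuous and replicate 1 of week 3 rechallenge differed from the other 2 libraries of their groups more than any other libraries did, and calls that changed without these 2 libraries are named beside the genes. Without them, no call of the 19 serpins that reached 1 CPM in a group was lost in the 12 comparisons run. In bulk RNA, fewer cells of a kind and less RNA per cell cannot be told apart. Positions are on GRCh38 as in GENCODE release 29. Values below are CPM scaled by edgeR's TMM factors, and log2 changes with their standard errors (SE) and Benjamini-Hochberg adjusted p-values come from edgeR's quasi-likelihood test over 20494 genes, called at 0.05.

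All 21 tested serpins differed between the 10 groups in the joint test, beside 88.6% of all genes tested. SERPINE2 was the most abundant serpin in every group. Per kilobase of exon, its level was 671 CPM in untreated BRAF-V600E cells, where SERPINH1 followed with 62.9 and SERPINB1 with 12.3 CPM per kilobase. In the first holiday SERPINE2 stood at 1616, SERPINB2 at 501 and SERPINH1 at 45.0 CPM per kilobase. The map of group means sets 18 serpins side by side, ordered by their difference between the first holiday and matched continuous drug.

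**Figure D1:**
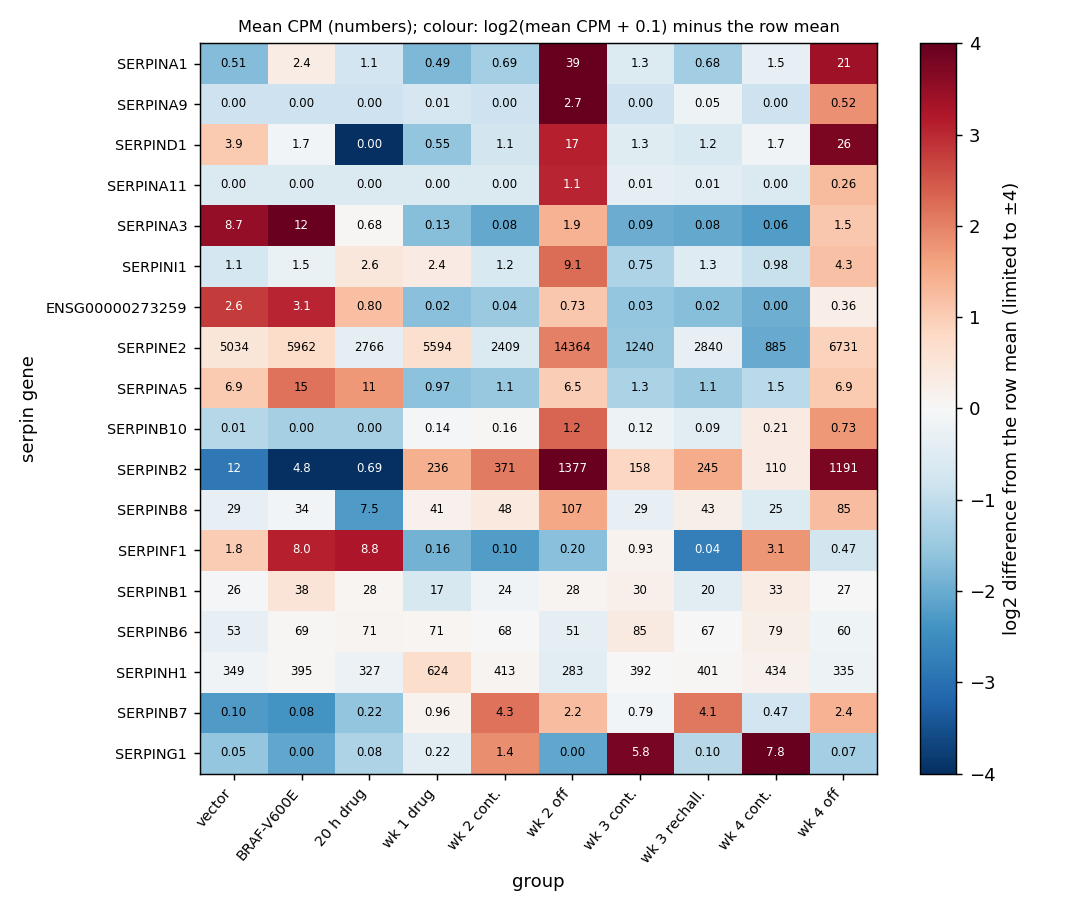
Mean CPM of 18 serpins that reached 1 CPM in a group (rows) in the 10 groups (columns; n = 3 libraries, 2 at week 4 continuous). Numbers are mean CPM and colours show log2(mean CPM + 0.1) minus the mean of the row, limited to 4 units either way; rows near the top, from SERPINA1 down to SERPINB8, are red in the off-drug columns, and SERPING1 at the bottom is red at weeks 3 and 4 of continuous drug.

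Among the inhibitors of plasminogen activators and thrombin, SERPINE2 and SERPINB2 were both higher in both drug holidays than on matched continuous drug. Both also fell at 20 h, rose by week 1 and were lower at week 4 of continuous drug than at week 1. They differed in level against untreated cells. SERPINE2 did not differ from untreated cells at week 1 by the test, and its later levels on continuous drug were lower. SERPINB2 stood far above the untreated level from week 1 on. SERPINE2, also called protease nexin-1, is a secreted inhibitor of thrombin and urokinase. SERPINB2, or PAI-2, inhibits urokinase and is largely retained inside cells.

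SERPINE2 (chromosome 2, 223975112 to 224039319, minus strand) measured 5172, 4878 and 5052 CPM in vector cells and 5749.7, 6223 and 5914 CPM in untreated BRAF-V600E cells. After 20 h of drug it was 2777, 2858 and 2662 CPM, and at week 1 it was back at 5697, 5662 and 5423 CPM. Continuous drug gave 2216, 2195 and 2817 CPM at week 2, 1144, 1316 and 1259 CPM at week 3 and 919 and 852 CPM at week 4. The continuous libraries thus stepped down from week to week without overlap. The first holiday gave 14723, 14544 and 13825 CPM, the rechallenge 2882, 2742 and 2896 CPM and the second holiday 6597, 6824 and 6771 CPM. Every first-holiday library was above every library of the other 9 groups. SERPINE2 was 5.96-fold higher in the first holiday than on matched continuous drug (log2 change 2.58 ± 0.08 SE, edgeR adjusted p = 2e-22) and 7.60-fold higher in the second (log2 change 2.93 ± 0.09 SE, edgeR adjusted p = 1.37e-21). The second holiday stood lower than the first (log2 change -1.09 ± 0.07 SE, edgeR adjusted p = 1.46e-12). The rise with BRAF-V600E over vector was small (log2 change 0.24 ± 0.07 SE, edgeR adjusted p = 0.0171) and was not called without replicate 2 of the untreated BRAF-V600E group (adjusted p = 0.06) or replicate 2 of the vector group (adjusted p = 0.0573).

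SERPINB2 (chromosome 18, 63871692 to 63903890, plus strand) had the widest range between group means of the described serpins with counts in all groups. It measured 11.6, 12.1 and 12.2 CPM in vector cells, 4.16, 5.31 and 4.88 CPM in untreated BRAF-V600E cells and 0.585, 0.775 and 0.711 CPM at 20 h. At week 1 it had reached 235, 231 and 243 CPM, and 347, 354 and 414 CPM at week 2 of continuous drug. These levels then declined to 145, 166 and 164 CPM at week 3 and 110.4 and 110.0 CPM at week 4. The week 4 libraries remained above every untreated and vector library. In the first holiday SERPINB2 was 1448, 1404 and 1279 CPM, after rechallenge 255, 215 and 264 CPM and in the second holiday 1108, 1358 and 1107 CPM. The 6 holiday libraries were the 6 highest of the 29. Week 1 exceeded 20 h by a log2 change of 8.41 (edgeR adjusted p = 2.06e-28), and the first holiday exceeded the untreated cells by 8.16 (edgeR adjusted p = 4.81e-29). Against matched continuous drug the holidays differed by 1.89 ± 0.09 SE at week 2 and 3.43 ± 0.11 SE at week 4 on the log2 scale. The 2 holidays did not differ by the test (log2 change -0.21 ± 0.09 SE, edgeR adjusted p = 0.0696), a difference that DESeq2, RLE factors and the fit without replicate 2 of week 4 off did call (adjusted p = 0.044, 0.0452 and 0.0104).

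**Figure D2:**
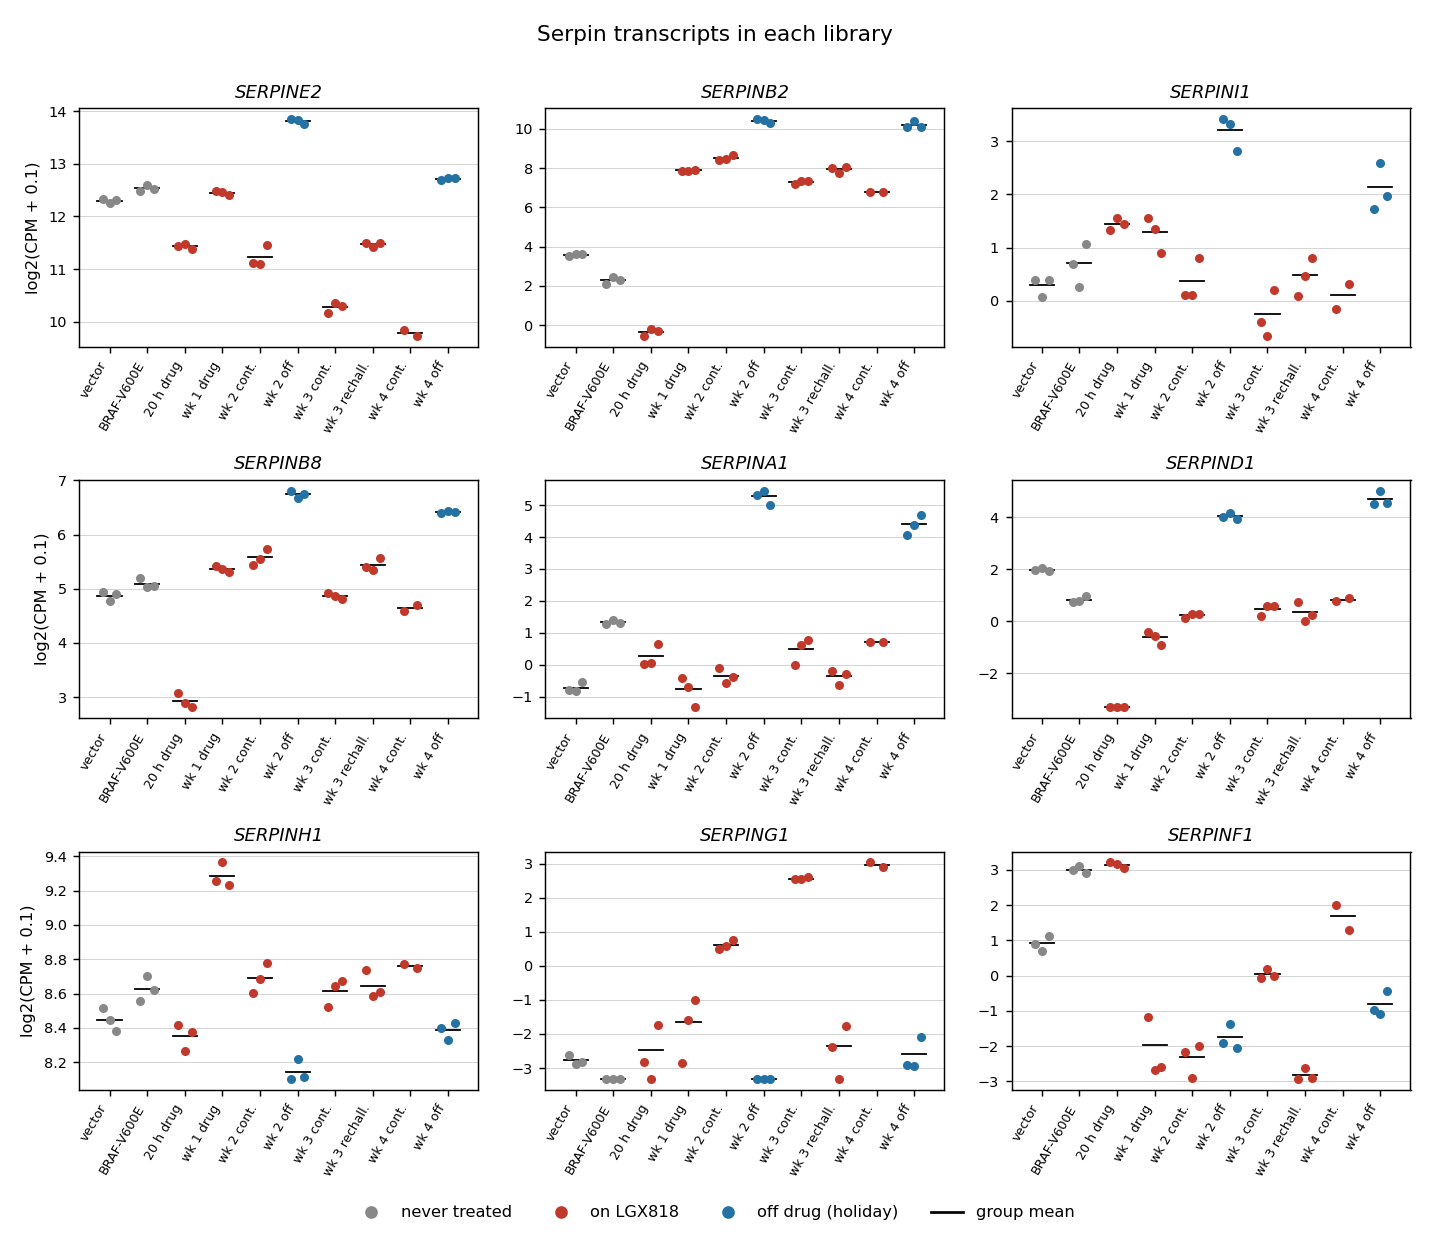
Log2(CPM + 0.1) of 9 serpins (panels) in each of the 29 libraries (points), by group on the x axis, with the group mean as a line; grey marks cells never given drug, red cells on LGX818 and blue cells in a drug holiday. The blue points are the highest of their panel for SERPINE2 at week 2 and for SERPINB2, SERPINI1, SERPINB8, SERPINA1 and SERPIND1 in both holidays, and SERPING1 is highest at weeks 3 and 4 of continuous drug.

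SERPIND1 (chromosome 22, 20773879 to 20787720, plus strand), heparin cofactor II, is a thrombin inhibitor made mainly in liver. It measured 3.87, 3.99 and 3.72 CPM in vector cells and 1.56, 1.62 and 1.85 CPM in untreated BRAF-V600E cells, and had no count in the 3 libraries at 20 h. With the floor of 3 counts over the group, the 20 h level was at least 40.5-fold lower than untreated (edgeR adjusted p = 2.29e-12). On continuous drug it was 0.655, 0.577 and 0.428 CPM at week 1, 0.988, 1.12 and 1.12 CPM at week 2, 1.05, 1.41 and 1.40 CPM at week 3 and 1.60 and 1.74 CPM at week 4. These values rose over the weeks without passing the range of untreated cells. The first holiday gave 16.2, 17.9 and 15.5 CPM, the rechallenge 1.55, 0.914 and 1.08 CPM and the second holiday 23.0, 32.6 and 23.5 CPM. All 6 holiday libraries were above all 23 others. SERPIND1 was higher than on matched continuous drug in the first holiday (log2 change 3.93 ± 0.18 SE, edgeR adjusted p = 2.58e-17) and the second (log2 change 3.98 ± 0.19 SE, edgeR adjusted p = 1.8e-16), and the second holiday stood above the first (log2 change 0.68 ± 0.13 SE, edgeR adjusted p = 0.000215). SERPIND1 overlaps PI4KA on the opposite strand and shares no exon bases with it.

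SERPINI1 (chromosome 3, 167735243 to 167825568, plus strand), neuroserpin, inhibits tissue-type plasminogen activator in the nervous system. It was 1.22, 0.954 and 1.21 CPM in vector cells, 1.52, 1.10 and 2.01 CPM in untreated BRAF-V600E cells, 2.42, 2.84 and 2.61 CPM at 20 h and 2.85, 2.45 and 1.78 CPM at week 1. Continuous drug gave 0.988, 0.981 and 1.64 CPM at week 2, 0.662, 0.535 and 1.05 CPM at week 3 and 0.800 and 1.15 CPM at week 4. Against these low values the first holiday stood out with 10.6, 9.86 and 6.96 CPM, ahead of the second with 3.20, 5.92 and 3.83 CPM, and the rechallenge gave 0.961, 1.28 and 1.64 CPM. Both holidays differed from continuous drug (log2 change 2.92 ± 0.27 SE, edgeR adjusted p = 8.79e-11 at week 2; log2 change 2.15 ± 0.32 SE, edgeR adjusted p = 1.2e-06 at week 4). The higher level at 20 h than untreated (log2 change 0.78 ± 0.28 SE, edgeR adjusted p = 0.0197) was lost without replicate 1 or 2 of the untreated group or replicate 2 of the 20 h group (adjusted p = 0.0521, 0.148 and 0.0587). Rechallenge and week 3 of continuous drug did not differ by the test (log2 change 0.78 ± 0.32 SE, edgeR adjusted p = 0.0692), and did without the 2 libraries that stood apart (adjusted p = 0.028). The fall from week 1 to week 4 of continuous drug (log2 change -1.27 ± 0.33 SE, edgeR adjusted p = 0.00229) was lost without replicate 1 of week 4 (adjusted p = 0.0617). SERPINF2 (chromosome 17, 1742836 to 1755268, plus strand), the plasmin inhibitor alpha-2-antiplasmin, was tested but stayed below 1 CPM in every group, and it was called higher in both holidays than on matched continuous drug (log2 change 1.45 ± 0.48 SE, edgeR adjusted p = 0.0116 at week 2; log2 change 1.99 ± 0.53 SE, edgeR adjusted p = 0.00224 at week 4).

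The proteases and receptors that meet these inhibitors were followed in lists of 47 target proteases and 25 cofactors and receptors. PLAT, which encodes tissue-type plasminogen activator, was 111 ± 7.14 CPM in untreated BRAF-V600E cells (SD, n = 3), 155 ± 2.62 CPM at week 2 of continuous drug (SD, n = 3) and 517 ± 15.6 CPM in the first holiday (SD, n = 3). In the second holiday it was 1366 ± 108 CPM (SD, n = 3), the highest of any group and above the first holiday (log2 change 1.40 ± 0.07 SE, edgeR adjusted p = 2.86e-15), while SERPINE2 was lower there than in the first holiday. PLAUR, the urokinase receptor, was 7.14 ± 1.01 CPM at 20 h (SD, n = 3), 101 ± 3.25 CPM at week 1 (SD, n = 3) and 405 ± 50.7 CPM in the first holiday (SD, n = 3). Like SERPINB2, it was lowest at 20 h, and its first-holiday excess over continuous drug was called (log2 change 2.36 ± 0.12 SE, edgeR adjusted p = 5.58e-17). PLAU, the gene of urokinase itself, was nearly absent. Its group mean was 0 CPM in the first holiday, 0.0111 CPM in the second and highest, 0.504 CPM, at week 4 of continuous drug. The genes of plasminogen (PLG) and thrombin (F2) had group means of at most 0.0154 and 0.0713 CPM. LRP2, an endocytic receptor of the LDL receptor family that takes up serpin-protease complexes, was 0.633 ± 0.279 CPM on continuous drug at week 2 (SD, n = 3) and 37.9 ± 5.05 CPM in the first holiday (SD, n = 3; log2 change 5.92 ± 0.22 SE, edgeR adjusted p = 2.82e-20). Its mean was 80.7 CPM in vector cells, 24.3 CPM untreated and 6.13 CPM in the second holiday. LRP1, a more abundant receptor of the same list, went the other way. Its mean was 955 CPM on continuous drug and 286 CPM in the holiday at week 2, and 739 and 241 CPM at week 4. TFPI2, a secreted Kunitz-type inhibitor of plasmin and other serine proteases, was 20.3 ± 1.56 CPM on continuous drug (SD, n = 3) and 499 ± 49.5 CPM in the first holiday (SD, n = 3; log2 change 4.62 ± 0.14 SE, edgeR adjusted p = 2.22e-22). F2R, a thrombin receptor, was lower in the holiday, going from 405 ± 19.7 CPM (SD, n = 3) to 72.3 ± 6.68 CPM (SD, n = 3) (log2 change -2.48 ± 0.09 SE, edgeR adjusted p = 1.58e-20).

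Of all genes tested, 27.3% were higher and 27.9% lower in the first holiday than on continuous drug. Beside that, 14 of 29 tested target proteases were higher and 8 lower, with a median log2 change of 0.53. Of 24 tested cofactors and receptors, 7 were higher and 12 lower, with a median of -0.27. Of 26 tested inhibitors of other families, 11 were higher and 6 lower, with a median of 0.45. Over all genes tested that median was -0.044. A list member seen almost only in the holidays could only be called higher there. TPSAB1, among the target proteases, had a mean of 15.0 CPM in the first holiday and at most 0.372 CPM in any other group. The list counts thus describe the tested members only. TIMP1, an inhibitor of matrix metalloproteases, was the most abundant of the 4 inhibitors of other families with the largest changes, with 6988 ± 1302 CPM in the first holiday (SD, n = 3) against 210.1 ± 39.1 CPM on continuous drug (SD, n = 3) (log2 change 5.06 ± 0.15 SE, edgeR adjusted p = 1.69e-22). A2M, alpha-2-macroglobulin, a trap for proteases of many classes, was 1399 ± 88.6 against 291 ± 20.1 CPM (SD, n = 3 each; log2 change 2.27 ± 0.08 SE, edgeR adjusted p = 3.63e-21). KLK6, a trypsin-like protease of the kallikrein family, was 61.9 ± 5.91 against 0.329 ± 0.179 CPM (SD, n = 3 each; log2 change 7.51 ± 0.22 SE, edgeR adjusted p = 9.7e-23).

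**Figure D3:**
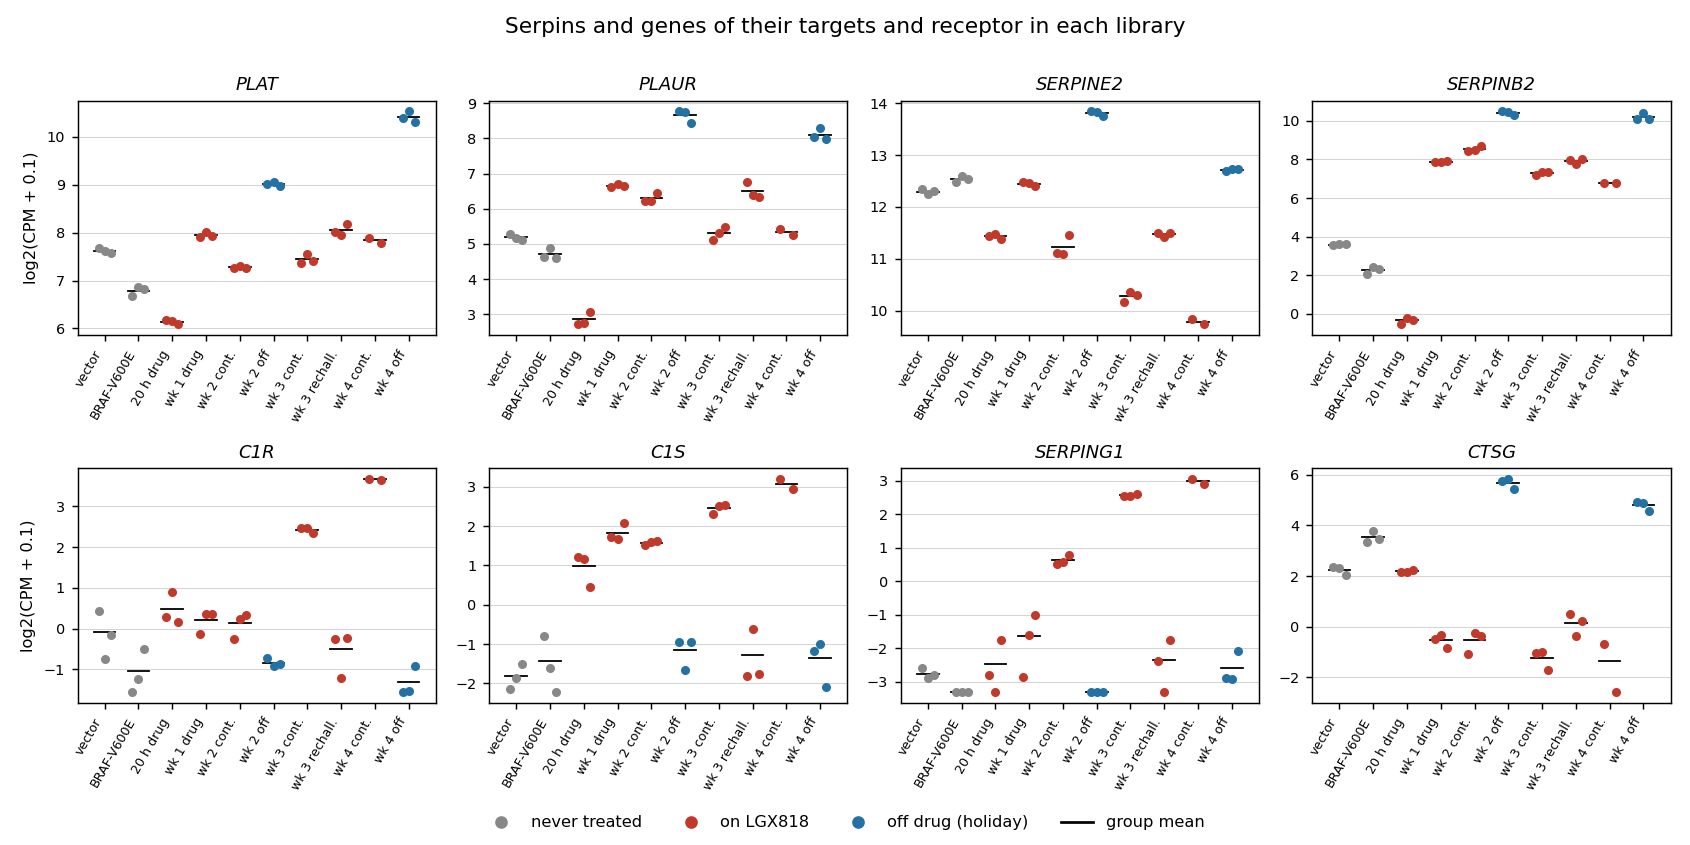
Log2(CPM + 0.1) of 3 serpins and of genes of their protease targets and of the urokinase receptor in each of the 29 libraries (points), by group on the x axis, with the group mean as a line; colours as in the plot of serpin transcripts by library. PLAT, PLAUR and SERPINB2 are highest in both holidays, C1R and C1S are highest with SERPING1 at weeks 3 and 4 of continuous drug, and CTSG is highest in the holidays.

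SERPINB2 belongs to a cluster of 10 clade B serpins on chromosome 18 (63476761 to 64019779, GRCh38, 543.0 kb), of which SERPINB2, SERPINB7, SERPINB8 and SERPINB10 were expressed and tested. The other 6, SERPINB3, SERPINB4, SERPINB5, SERPINB11, SERPINB12 and SERPINB13, had at most 22 counts each over all 29 libraries. The 4 expressed members were each called higher at week 1 than untreated, beside 27.5% of all genes, SERPINB10 from 13 counts against 0. The promoters of the 3 expressed members with an entry are shown because they hold the AP-1 motif, the site of the FOS and JUN factors that the ERK pathway induces. Whether the motif has a part in these calls was not tested. Sequences and starts are RefSeq's on GRCh38.p14, read 5′ to 3′ on the plus strand. Capitals mark the AP-1 motif, searched as TGANTCA on either strand, where N is any base. They also mark the TATA box, which is TATAAA on either strand, and the marked motifs do not overlap here. SERPINB7 has 3 starts in the table, of which the one farthest downstream is shown, and the one farthest upstream has no AP-1 match. Exon bases of the annotation were left out of the first 2 runs, so each ends just before an exon. All 250 bases upstream of the SERPINB8 start are annotated as exon of a gene on either strand, so the 2 short SERPINB8 stretches around its matches lie in exon bases.
SERPINB2, chr18:63887455-63887699: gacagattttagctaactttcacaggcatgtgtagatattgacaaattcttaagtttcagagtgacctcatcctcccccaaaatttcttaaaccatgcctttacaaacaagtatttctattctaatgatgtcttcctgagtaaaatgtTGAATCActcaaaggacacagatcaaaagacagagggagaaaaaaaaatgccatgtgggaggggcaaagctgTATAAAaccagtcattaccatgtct
SERPINB7, chr18:63777531-63777776: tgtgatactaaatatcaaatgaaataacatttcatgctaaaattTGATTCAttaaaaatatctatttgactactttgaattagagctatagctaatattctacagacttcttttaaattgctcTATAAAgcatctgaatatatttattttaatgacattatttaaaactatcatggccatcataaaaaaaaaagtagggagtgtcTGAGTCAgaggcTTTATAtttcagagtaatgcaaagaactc
SERPINB8, first AP-1 match, chr18:63969885-63969913: ggagtcaaacgTGAATCAacggtgaaaaa
SERPINB8, second AP-1 match, chr18:63970042-63970070: tcgaacggttcTGAGTCAtctgccggaag

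The AP-1 letters stood at position -102 from the start in SERPINB2, at -206 and -45 in SERPINB7 and at -185 and -28 in SERPINB8. Of 41 windows of 300 bases around the starts of 27 serpins, 9 held TGANTCA on at least 1 strand (22.0%), against 7.7% of all 35116 windows in the table. On chromosome 18 these were 7 of 11 windows, and elsewhere 2 of 30. SERPINB5, SERPINB12 and SERPINB13, which had 22, 12 and 0 counts, held it too. TATAAA was in 26.8% of the serpin windows and 11.5% of all windows, and the E-box CACGTG was in 2.4% and 7.3%. A match in the letters is a description of the sequence and does not show binding.

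SERPINB8 (chromosome 18, 63969925 to 64019779, plus strand), an intracellular inhibitor of furin, was 30.7, 27.1 and 29.9 CPM in vector cells and 36.5, 32.5 and 33.1 CPM in untreated BRAF-V600E cells. At 20 h it was 8.32, 7.32 and 6.92 CPM, its lowest level, 4.53-fold below untreated (log2 change -2.18 ± 0.09 SE, edgeR adjusted p = 8.19e-19). It was 42.7, 40.9 and 39.5 CPM at week 1. Continuous drug then gave 43.5, 46.5 and 53.3 CPM at week 2, 30.3, 29.1 and 27.8 CPM at week 3 and 24.1 and 25.8 CPM at week 4. The week 1 level was only slightly above untreated (log2 change 0.27 ± 0.08 SE, edgeR adjusted p = 0.00543). The first holiday gave 112, 102 and 107 CPM, the rechallenge 42.0, 40.8 and 47.4 CPM and the second holiday 84.1, 86.5 and 85.0 CPM. Every holiday library was above every other library, and both holidays differed from continuous drug (log2 change 1.17 ± 0.08 SE, edgeR adjusted p = 9.32e-14 at week 2; log2 change 1.77 ± 0.09 SE, edgeR adjusted p = 3.67e-16 at week 4). SERPINB8 shares 10.7% of its exon bases with HMSD and the antisense AC009802.1, and reads there cannot be attributed to 1 gene.

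SERPINB7 (chromosome 18, 63752935 to 63805376, plus strand), also called megsin, is best known from epidermis and kidney. It measured 0.0320, 0.141 and 0.126 CPM in vector cells, 0.0800, 0.0972 and 0.0757 CPM untreated, 0.502, 0.129 and 0.0395 CPM at 20 h and 0.732, 0.865 and 1.28 CPM at week 1. It was highest at week 2 of continuous drug with 3.74, 3.99 and 5.05 CPM and after rechallenge with 4.96, 3.60 and 3.67 CPM, and these 2 groups overlapped. Later continuous drug gave 0.662, 0.845 and 0.873 CPM at week 3 and 0.739 and 0.197 CPM at week 4. The first holiday, with 2.35, 3.002 and 1.18 CPM, was below matched continuous drug (log2 change -0.97 ± 0.31 SE, edgeR adjusted p = 0.00792), and the second, with 1.94, 2.63 and 2.701 CPM, was above it (log2 change 2.35 ± 0.43 SE, edgeR adjusted p = 3.81e-05). The week 2 difference was not called without replicate 3 of week 2 off, the lowest library of its group (log2 change -0.68, adjusted p = 0.0719). SERPINB7 thus stood on opposite sides of continuous drug in the 2 holidays, and the difference between these 2 differences was not tested.

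SERPINB10 (chromosome 18, 63897174 to 63936111, plus strand), or bomapin, is known from blood-forming cells. It had 1 count in all vector libraries, none in untreated cells and none at 20 h. On drug it was 0.0770, 0.202 and 0.132 CPM at week 1, 0.0823, 0.237 and 0.149 CPM at week 2, 0.117, 0.0282 and 0.204 CPM at week 3 and 0.0923 and 0.329 CPM at week 4. The holidays gave 1.05, 1.47 and 0.940 CPM at week 2 and 0.681, 0.744 and 0.767 CPM at week 4, and the rechallenge 0, 0 and 0.262 CPM. The first holiday was at least 31.7-fold above untreated cells by the floor of 3 counts. Both holidays were called higher than continuous drug, the first with log2 change 2.82 ± 0.67 SE, edgeR adjusted p = 0.000795. The holiday libraries held 160 of its 219 counts, and it passed the count filter only through them, so these calls are not independent of the filter. The call at week 4 (log2 change 1.79 ± 0.74 SE, edgeR adjusted p = 0.0447) was lost in DESeq2, under the replicate block and without any 1 of 6 libraries, among them replicate 1 of week 4 continuous (adjusted p = 0.0943, 0.067 and 0.337). SERPINB10 and SERPINB2 overlap on the same strand by 547 exon bases, 20.3% of the exon bases of SERPINB10. Since SERPINB2 had 318586 counts and SERPINB10 219, whether SERPINB10 counts hold reads of SERPINB2 matters for its level, and this was not tested.

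**Figure D4:**
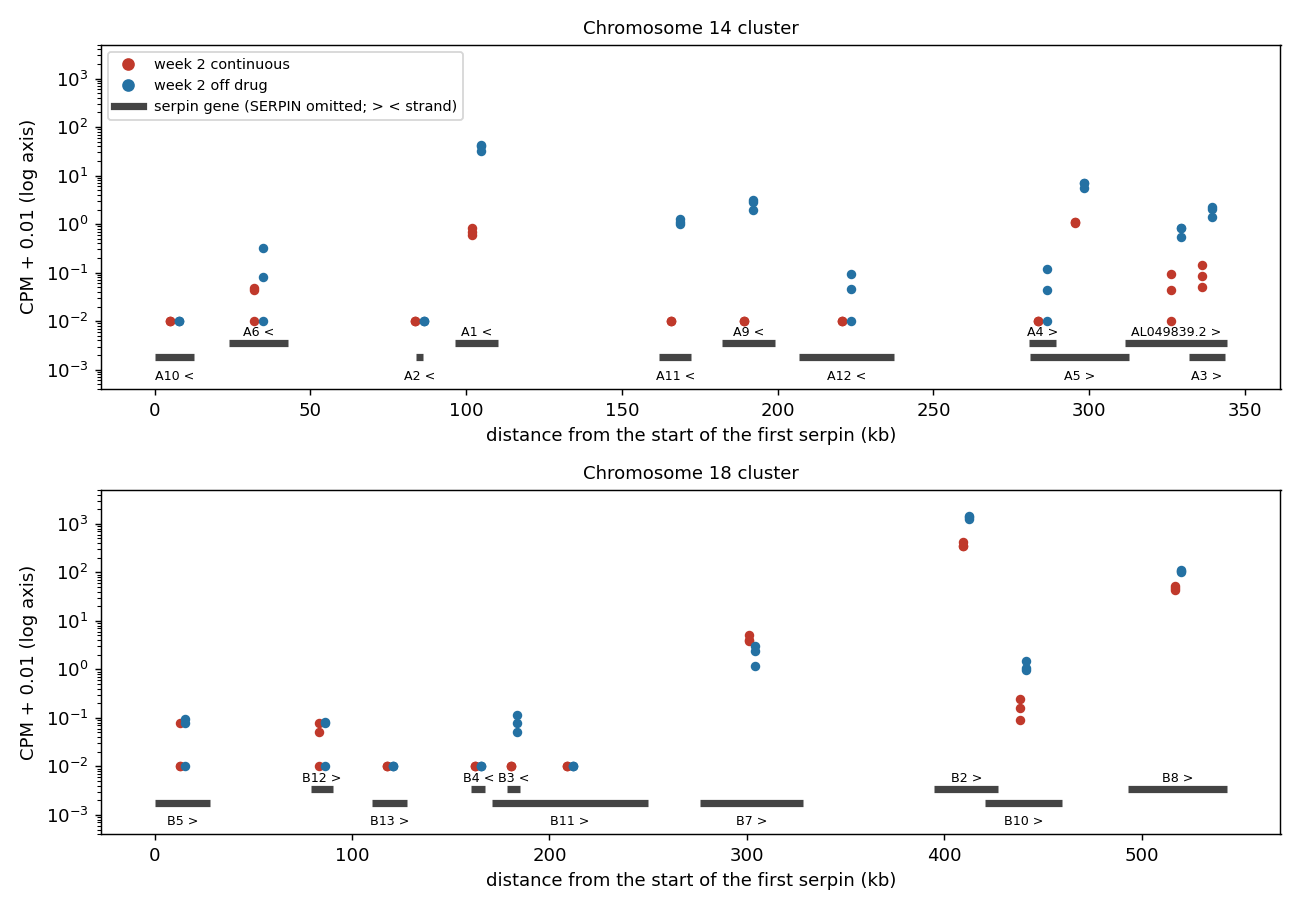
CPM + 0.01 (log y axis) of the serpins of the chromosome 14 and chromosome 18 clusters in the 3 week 2 continuous (red) and 3 week 2 off-drug (blue) libraries, against the distance in kb from the first serpin of each cluster; grey bars are the genes with the prefix SERPIN left out, AL049839.2 is ENSG00000273259, and arrowheads give the strand. On chromosome 14 the blue points are above the red for A1, A11, A9, A5, A3 and AL049839.2, and on chromosome 18 for B2, B10 and B8 but not for B7.

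A second cluster, on chromosome 14 (94280455 to 94624646, GRCh38, 344.2 kb), holds 11 clade A rows, of which 6 were tested. SERPINA1, SERPINA3 and SERPINA5 were higher in the first and in the second holiday than on matched continuous drug (all genes: 27.3% and 26.1% higher) and fell on rechallenge (all genes: 28.5% lower). The other 3 had the same calls, with limits. SERPINA9 had 259 of its 265 counts and SERPINA11 116 of its 118 in the holiday libraries, so both passed the count filter through those libraries and could only be called higher there. ENSG00000273259 shares 54.5% of its exon bases with SERPINA3 and SERPINA5 and is not a separate measurement of the cluster. Most clade A serpins are plasma proteins made by hepatocytes. The hepatocyte markers did not follow as a list: APOB and HP had no count in any library, ALB was at 0 in the holidays, and the summed level of the 6 markers was 3.17 to 4.36 CPM in the first holiday, 0.527 to 0.967 CPM in the second and at most 0.461 CPM in any other library. In the first holiday that sum came from APOA1, the only one of the 6 above 0 there.

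SERPINA1 (chromosome 14, 94376747 to 94390693, minus strand), alpha-1-antitrypsin, inhibits neutrophil elastase. It measured 0.480, 0.459 and 0.586 CPM in vector cells, 2.32, 2.53 and 2.38 CPM in untreated BRAF-V600E cells and 0.920, 0.947 and 1.46 CPM at 20 h. It was 0.655, 0.519 and 0.296 CPM at week 1. Continuous drug gave 0.823, 0.575 and 0.673 CPM at week 2, 0.895, 1.44 and 1.60 CPM at week 3 and 1.54 CPM in both libraries at week 4. All groups on drug thus stayed below 2 CPM. The first holiday reached 39.8, 43.6 and 32.3 CPM and the second 16.7, 20.7 and 26.0 CPM, and the rechallenge gave 0.775, 0.549 and 0.722 CPM. SERPINA1 was 56.1-fold higher in the first holiday than on continuous drug (log2 change 5.81 ± 0.21 SE, edgeR adjusted p = 2.49e-20), 13.7-fold higher in the second (log2 change 3.77 ± 0.22 SE, edgeR adjusted p = 2.59e-15), and lower in the second holiday than in the first (log2 change -0.87 ± 0.14 SE, edgeR adjusted p = 2.35e-05). Its lower level after rechallenge than at week 3 of continuous drug (log2 change -0.97 ± 0.26 SE, edgeR adjusted p = 0.00555) was not called without replicate 3 of week 3 continuous or in the fit of these 2 groups alone (adjusted p = 0.0506 and 0.0643).

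SERPINA3 (chromosome 14, 94612377 to 94624055, plus strand), alpha-1-antichymotrypsin, inhibits cathepsin G and chymase. It was highest in cells never given drug, with 8.19, 8.90 and 8.91 CPM in vector cells and 12.6, 10.7 and 11.5 CPM in untreated BRAF-V600E cells. It fell to 0.920, 0.732 and 0.395 CPM at 20 h and to 0, 0.202 and 0.197 CPM at week 1. Continuous drug left 0.0411, 0.135 and 0.0747 CPM at week 2, 0.0778, 0.113 and 0.0873 CPM at week 3 and 0.123 and 0 CPM at week 4. The first holiday raised it to 2.01, 2.29 and 1.39 CPM and the second to 1.84, 0.929 and 1.77 CPM, above every library on drug past 20 h, and the rechallenge gave 0, 0.152 and 0.0984 CPM. Recovery was partial: SERPINA3 was higher in the first holiday than on continuous drug (log2 change 4.38 ± 0.51 SE, edgeR adjusted p = 1.25e-08) but lower than in untreated cells (log2 change -2.61 ± 0.27 SE, edgeR adjusted p = 7.01e-10). CTSG, the gene of cathepsin G, was 11.6 ± 1.85 CPM untreated (SD, n = 3), 0.596 ± 0.199 CPM at week 2 of continuous drug (SD, n = 3) and 51.4 ± 6.72 CPM in the first holiday (SD, n = 3; log2 change 6.39 ± 0.23 SE, edgeR adjusted p = 2.8e-20 against continuous drug). SERPINA3 shares 31.8% of its exon bases with ENSG00000273259 on the same strand. That row (chromosome 14, 94592058 to 94624646, plus strand) measured 2.88, 2.12 and 2.76 CPM in vector cells, 2.96, 3.34 and 2.99 CPM untreated and 0.794, 0.775 and 0.830 CPM at 20 h. It had 10 counts in all over the 5 later groups on drug, 0.838, 0.822 and 0.522 CPM in the first holiday and 0.477, 0.279 and 0.333 CPM in the second. Its 58 counts in the first holiday against 3 on matched continuous drug gave a ratio of 19.3 (95% exact counting interval 6.30 to 96.5). Reads in the shared stretch cannot be attributed to one of the 2 rows.

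SERPINA5 (chromosome 14, 94561442 to 94593120, plus strand), protein C inhibitor, acts on activated protein C and on urokinase. It was 7.20, 6.85 and 6.70 CPM in vector cells and 15.8, 15.0 and 14.8 CPM with BRAF-V600E (log2 change 1.14 ± 0.14 SE, edgeR adjusted p = 6.21e-07). At 20 h it was 10.7, 11.2 and 11.7 CPM, a smaller fall than at week 1, when it was 1.04, 0.923 and 0.954 CPM (log2 change -3.97 ± 0.18 SE, edgeR adjusted p = 5.42e-18 against untreated). It remained at 1.07, 1.05 and 1.12 CPM at week 2, 1.09, 1.27 and 1.51 CPM at week 3 and 2.06 and 0.920 CPM at week 4 of continuous drug. The slight rise from week 1 to week 4 (log2 change 0.63 ± 0.24 SE, edgeR adjusted p = 0.0358) rested on replicate 1 of week 4 continuous, without which the change was -0.08 (adjusted p = 0.902). Both holidays, with 7.04, 6.86 and 5.57 CPM and 5.76, 6.78 and 8.03 CPM, lay between the groups on drug past 20 h and the untreated cells, and the rechallenge gave 1.08, 0.975 and 1.21 CPM. The holidays did not differ from each other by the test (log2 change 0.08 ± 0.15 SE, edgeR adjusted p = 0.735).

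SERPINA9 (chromosome 14, 94462717 to 94479689, minus strand), or centerin, is known from germinal-centre B cells. It had no count in vector, untreated, 20 h, week 2 continuous, week 3 continuous or week 4 continuous libraries and 1 count in all at week 1. The first holiday gave 3.10, 2.89 and 1.98 CPM, the rechallenge 0.124, 0 and 0.0328 CPM and the second holiday 0.954, 0.279 and 0.333 CPM. By the floor of 3 counts the first holiday was at least 70.7-fold above matched continuous drug (edgeR adjusted p = 2.96e-07) and the second at least 10.8-fold (edgeR adjusted p = 0.00044), a call that DESeq2 did not make (adjusted p = 0.124). The fall on rechallenge was likewise not called by DESeq2 (adjusted p = 0.0962). Its neighbour SERPINA11 (chromosome 14, 94442464 to 94452790, minus strand) had no count in vector cells, untreated cells or any group on drug except 1 count each at week 3 continuous and week 3 rechallenge. The holidays gave 1.01, 1.29 and 1.11 CPM and 0.238, 0.248 and 0.300 CPM, at least 30.7-fold and at least 5.49-fold above matched continuous drug (edgeR adjusted p = 9.52e-07 and 0.000998). An antisense gene, AL132708.1, overlaps both loci and shares 105 exon bases with SERPINA9, and whether reads were counted by strand is not given in the sources used here.

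The non-inhibitory SERPINH1 and SERPINF1 and the complement inhibitor SERPING1 were not higher in either drug holiday by the test. SERPINH1 (chromosome 11, 75562056 to 75572783, plus strand), or HSP47, is the collagen chaperone of the endoplasmic reticulum and inhibits no protease. Its group means spanned a 2.21-fold range, with 365, 348 and 333 CPM in vector cells, 377, 416 and 393 CPM untreated and 341, 308 and 332 CPM at 20 h. It peaked at week 1 with 612, 659 and 602 CPM (log2 change 0.66 ± 0.07 SE, edgeR adjusted p = 6.92e-10 against untreated), above every library of the other 9 groups. Continuous drug then gave 388, 411 and 439 CPM at week 2, 368, 399.6 and 408 CPM at week 3 and 437 and 430.4 CPM at week 4, and the rechallenge 426, 385 and 391 CPM. The first holiday was its lowest group with 275, 298 and 276 CPM (log2 change -0.55 ± 0.07 SE, edgeR adjusted p = 3.57e-08), and the second stood at 338, 322 and 345 CPM (log2 change -0.37 ± 0.07 SE, edgeR adjusted p = 9.09e-05).

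The enzymes and export factors that handle the same collagen chains were followed in a list of 27 genes, all tested. At week 1, 22 of them were higher than untreated and 1 lower (all genes: 27.5% and 26.7%), with a median log2 change of 0.79 against 0 over all genes. LOXL2, a collagen cross-linking oxidase, rose from 159.8 ± 3.89 to 1121 ± 44.8 CPM (SD, n = 3 each; log2 change 2.81 ± 0.07 SE, edgeR adjusted p = 3.91e-24), and P3H2, a prolyl 3-hydroxylase, from 8.56 ± 1.00 to 133 ± 2.32 CPM (SD, n = 3 each; log2 change 3.95 ± 0.10 SE, edgeR adjusted p = 1.74e-24). In the first holiday 6 were higher and 13 lower than on continuous drug (all genes: 27.3% and 27.9%), and LOXL2 was among the lower (log2 change -3.35 ± 0.07 SE, edgeR adjusted p = 2.55e-25). From week 1 to week 4 of continuous drug SERPINH1 fell (log2 change -0.53 ± 0.08 SE, edgeR adjusted p = 1.1e-06) while ADAMTS2, the procollagen N-propeptidase, rose from 3.87 ± 1.43 CPM (SD, n = 3) to 318 ± 21.9 CPM (SD, n = 2; log2 change 6.35 ± 0.17 SE, edgeR adjusted p = 9.9e-23). The summed fibroblast markers, which include the fibrillar collagen genes, rose from 305 to 313 CPM at week 1 to 2352 to 2597 CPM at week 4, and their part in these values was not tested.

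SERPING1 (chromosome 11, 57597387 to 57614853, plus strand), the inhibitor of the complement proteases C1r and C1s, was highest at week 4 of continuous drug. It had 4 counts in vector libraries, none in untreated cells, 6 at 20 h and 0.0385, 0.231 and 0.395 CPM at week 1. Continuous drug raised it to 1.32, 1.39 and 1.61 CPM at week 2, 5.76, 5.78 and 5.97 CPM at week 3 and 8.16 and 7.43 CPM at week 4, 3 steps without overlap. It had no count in the first holiday, 9 counts after rechallenge and 6 in the second holiday. The first holiday was thus at least 38.6-fold below matched continuous drug by the floor of 3 counts (edgeR adjusted p = 1.85e-08). Rechallenge was lower than week 3 of continuous drug (log2 change -5.89 ± 0.44 SE, edgeR adjusted p = 6.21e-11), and week 4 of continuous drug was higher than week 1 (log2 change 5.06 ± 0.40 SE, edgeR adjusted p = 6.59e-11). The higher level at 20 h than untreated, 6 counts against 0, was lost without replicate 3 of the 20 h group or any 1 untreated library (adjusted p = 0.324, 0.0748, 0.0914 and 0.0807). The genes of its targets were also highest at weeks 3 and 4 of continuous drug. C1R was 1.06 ± 0.216 CPM at week 1 (SD, n = 3), 5.27 ± 0.276 CPM at week 3 of continuous drug (SD, n = 3) and 12.6 ± 0.0709 CPM at week 4 (SD, n = 2; log2 change 3.55 ± 0.27 SE, edgeR adjusted p = 2.4e-12). After rechallenge C1R was 0.611 ± 0.239 CPM (SD, n = 3) and C1S 0.310 ± 0.206 CPM (SD, n = 3), both lower than at week 3 of continuous drug (log2 change -3.10 ± 0.27 SE, edgeR adjusted p = 2.35e-10; log2 change -4.09 ± 0.31 SE, edgeR adjusted p = 1.18e-11).

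SERPINF1 (chromosome 17, 1761959 to 1777574, plus strand), pigment epithelium-derived factor, is a secreted non-inhibitory serpin known for opposing vessel growth. It was 1.76, 1.52 and 2.09 CPM in vector cells and 7.92, 8.62 and 7.38 CPM with BRAF-V600E (log2 change 2.16 ± 0.23 SE, edgeR adjusted p = 1.46e-08), and stayed at 9.20, 8.96 and 8.26 CPM at 20 h. At week 1 it had dropped to 0.347, 0.0577 and 0.0658 CPM (log2 change -5.75 ± 0.32 SE, edgeR adjusted p = 8.6e-16 against untreated). Continuous drug gave 0.123, 0.0338 and 0.149 CPM at week 2, 0.856, 1.04 and 0.902 CPM at week 3 and 3.91 and 2.33 CPM at week 4, a return that passed the test between weeks 1 and 4 (log2 change 4.40 ± 0.36 SE, edgeR adjusted p = 2.5e-11). Neither holiday brought it back: it was 0.168, 0.286 and 0.139 CPM in the first and 0.409, 0.372 and 0.633 CPM in the second, with 0.0310, 0.0610 and 0.0328 CPM after rechallenge. The second holiday was lower than matched continuous drug (log2 change -2.72 ± 0.30 SE, edgeR adjusted p = 4.99e-09). Its change on rechallenge (log2 change -2.13 ± 0.71 SE, edgeR adjusted p = 0.0114) was lost without replicate 2 of week 2 off (adjusted p = 0.0806), and its difference between holidays (log2 change 1.23 ± 0.44 SE, edgeR adjusted p = 0.0347) without replicate 1 or 3 of week 2 off or replicate 3 of week 4 off (adjusted p = 0.0993, 0.127 and 0.158).

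The 3 clade B serpins of a cluster on chromosome 6 (2832332 to 2972165, GRCh38) included the described serpin with the narrowest range, SERPINB6, whose group means spanned 1.65-fold. SERPINB6 (chromosome 6, 2948159 to 2972165, minus strand), an intracellular inhibitor of cathepsin G, was 55.4, 54.2 and 50.2 CPM in vector cells, 67.3, 73.4 and 66.3 CPM untreated, 72.7, 75.3 and 65.4 CPM at 20 h and 72.3, 71.8 and 68.1 CPM at week 1. It was 60.03, 64.5 and 78.8 CPM at week 2, 76.4, 91.4 and 85.8 CPM at week 3 and 79.4 and 78.7 CPM at week 4 of continuous drug, and 73.8, 60.7 and 65.8 CPM after rechallenge. The holidays were slightly lower than continuous drug, with 55.8, 50.9 and 47.1 CPM (log2 change -0.40 ± 0.09 SE, edgeR adjusted p = 0.000397) and 58.1, 63.4 and 57.3 CPM (log2 change -0.41 ± 0.10 SE, edgeR adjusted p = 0.00109). The difference of SERPINB6 between the holidays was not called (log2 change 0.22 ± 0.09 SE, edgeR adjusted p = 0.0739) but was in 11 of 35 alternatives, over which the adjusted p ran from 0.0153, without the 2 libraries that stood apart, to 0.214. SERPINB1 (chromosome 6, 2832332 to 2842006, minus strand), an inhibitor of neutrophil elastase, was 26.5, 24.7 and 25.9 CPM in vector cells and 37.3, 39.96 and 36.9 CPM untreated. It was 28.7, 29.4 and 24.9 CPM at 20 h and 18.2, 16.6 and 16.3 CPM at week 1, and continuous drug gave 20.9, 22.4 and 28.1 CPM at week 2, 30.2, 30.4 and 30.5 CPM at week 3 and 32.8 and 32.2 CPM at week 4. Week 1 was its lowest group (log2 change -1.16 ± 0.09 SE, edgeR adjusted p = 4.51e-12 against untreated). The holidays, with 30.4, 27.4 and 27.2 CPM and 23.6, 29.6 and 27.5 CPM, overlapped, and the rechallenge gave 19.2, 19.8 and 20.5 CPM. SERPINB1 was called higher than continuous drug at week 2 (log2 change 0.25 ± 0.09 SE, edgeR adjusted p = 0.0228) and lower at week 4 (log2 change -0.27 ± 0.10 SE, edgeR adjusted p = 0.0255), and both calls were lost under several alternatives (largest adjusted p = 0.117 and 0.247). SERPINB9 (chromosome 6, 2887266 to 2903280, minus strand), the granzyme B inhibitor, had 74 counts in all, 52 of them at 20 h, where it exceeded untreated cells (log2 change 3.46 ± 0.73 SE, edgeR adjusted p = 0.000286). With at most 4 counts in any other library, it passed the count filter only through the 20 h group and could only be called higher there.

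Read by comparison, BRAF-V600E without drug was associated with 7 tested serpins higher and 3 lower than in vector cells, where the shares over all tested genes were 7.04% and 9.92%. The higher ones were SERPINA1 (log2 change 2.25 ± 0.27 SE, edgeR adjusted p = 1.74e-07), SERPINF1, SERPINA5, SERPINF2, SERPINB1, SERPINB6 and SERPINE2, with log2 changes from 0.24 to 2.25. Among the lower ones were SERPINB2 (log2 change -1.31 ± 0.11 SE, edgeR adjusted p = 2.8e-10) and SERPIND1 (log2 change -1.20 ± 0.18 SE, edgeR adjusted p = 9.07e-06). SERPINH1 and SERPINB8 missed the threshold (log2 change 0.18 ± 0.07 SE, edgeR adjusted p = 0.0629; log2 change 0.22 ± 0.08 SE, edgeR adjusted p = 0.0611) and passed it with RLE factors, with DESeq2 and without the 2 libraries that stood apart. SERPINA3 missed it too (log2 change 0.42 ± 0.23 SE, edgeR adjusted p = 0.256) and passed in the fit of these 2 groups alone (adjusted p = 0.00677).

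The first 20 h of LGX818 lowered serpins more often than it raised them: 12 of 21 were lower and 3 higher, while 25.2% of all genes were lower and 28.4% higher. SERPINB9, among the 3 higher, passed the count filter only through the 20 h libraries. The median log2 change was -0.44 over the tested serpins and 0.057 over all genes. The 20 h libraries also had more mitochondrial counts than untreated ones (17.6% to 20.7% against 14.9% to 16.4% of the total) and a higher summed level of melanocytic markers (8073 to 8228 against 2367 to 2482 CPM), and the part of either in these counts was not tested. At week 1 the calls were divided, with 7 higher and 8 lower than untreated (all genes: 27.5% higher and 26.7% lower). Between 20 h and week 1, 8 rose and 7 fell (all genes: 28.6% and 29.1%). By location, the 4 tested serpins of the chromosome 18 cluster were all higher, and 4 of the 6 tested on chromosome 14 were lower and none higher. On chromosome 18, the call for SERPINB10 rested on 13 counts against 0. On chromosome 14, ENSG00000273259 was among the lower and shares exon bases with SERPINA3 and SERPINA5. SERPINA9 and SERPINA11 had at most 1 count in either group and could not be called lower. From week 1 to week 4 of continuous drug, 6 rose and 6 fell (all genes: 21.1% and 19.9%), the risers being SERPING1, SERPINF1, SERPINA1, SERPIND1, SERPINB1 and SERPINA5. SERPINE2, SERPINB2, SERPINB8, SERPINH1 and SERPINI1 were among those that fell.

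In the first holiday 15 of 21 tested serpins were higher and 4 lower than on matched continuous drug, beside 27.3% and 27.9% of all genes, and the median log2 change was 1.89 for serpins and -0.044 for all genes. In the second holiday 15 were higher and 5 lower, beside 26.1% and 25.1%, with medians of 2.15 and -0.005. The 2 comparisons share no library, and 14 serpins were higher in both and 3 lower in both. How many of all genes were called alike in both holidays was not computed, so this count is a description of the serpins only. SERPINB1 and SERPINB7 were called in opposite directions, SERPINF1 was called at week 4 only and SERPINB9 in neither. Some serpins pass the count filter because of the holiday libraries themselves, SERPINA9, SERPINA11 and SERPINB10 among them, so these counts describe the tested members and not all 36. Of the calls, 18 at week 2 and 20 at week 4 had groups whose libraries did not overlap. The share of such calls over all genes was not computed, so these counts only describe the libraries.

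**Figure D5:**
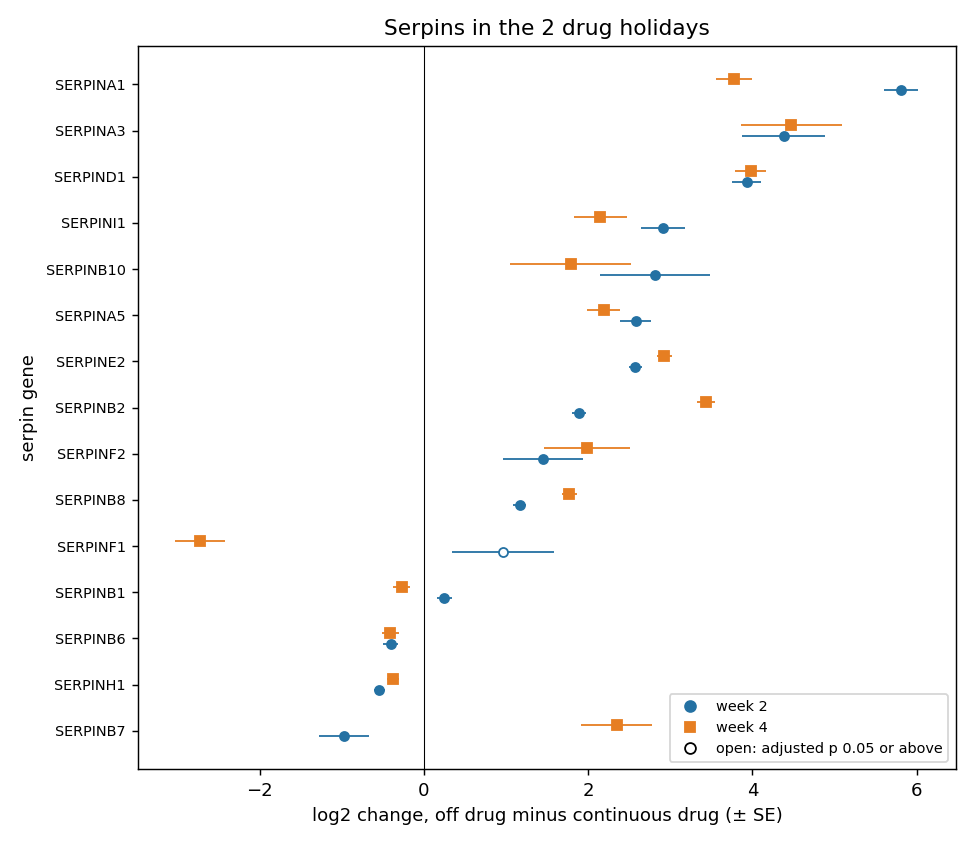
Log2 change of 15 serpins with more than 3 counts in each of the groups compared (rows), drug holiday minus matched continuous drug, at week 2 (blue circles) and week 4 (orange squares), with the standard error as a bar; open symbols have an adjusted p of 0.05 or above. Changes run from -2.72 for SERPINF1 at week 4 to 5.81 for SERPINA1 at week 2, and SERPINB7, SERPINB1 and SERPINF1 lie on different sides of 0 at the 2 times.

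The first holiday did not restore the levels before drug. Against untreated BRAF-V600E cells 11 serpins were higher and 8 lower (all genes: 31.2% and 28.8%). The higher ones include SERPINA9, SERPINA11 and SERPINB10, which had no count in untreated cells. They passed the count filter through the holiday libraries and could only be called higher. The labels give no week for the untreated cells, so the comparison may not be matched in time. SERPINB2, SERPINA1, SERPIND1, SERPINI1, SERPINB8 and SERPINE2 exceeded the untreated level, by a log2 change of 8.16 for SERPINB2 and 1.27 for SERPINE2. SERPINA3, SERPINA5 and SERPINF1 stayed below it, with log2 changes of -2.61, -1.23 and -5.30. The second holiday had 4 serpins higher and 8 lower than the first (all genes: 14.6% and 14.4%). The higher ones were SERPIND1, SERPINH1, SERPINF1 and SERPINB9 (adjusted p rounding to 0.05, from 0 and 7 counts), and the call for ENSG00000273259 among the lower (log2 change -0.99 ± 0.38 SE, edgeR adjusted p = 0.049) was lost under most alternatives.

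Rechallenge with LGX818 lowered 16 serpins and raised 4 from the first holiday (all genes: 28.5% lower and 27.8% higher), and the raised ones were SERPINH1, SERPINB6, SERPINB7 and SERPING1. Among the lowered were SERPINA9, SERPINA11 and SERPINB10, which passed the count filter through the holiday libraries, so their fall is not independent of the filter. ENSG00000273259, also among the lowered, shares exon bases with SERPINA3 and SERPINA5 and is not a separate measurement. The call for SERPING1 was lost without replicate 3 of the rechallenge (adjusted p = 0.116), and that for SERPINB7 without replicate 3 of week 2 off or replicate 1 of the rechallenge (adjusted p = 0.0974 and 0.0594). Compared with week 3 of continuous drug, 5 were higher and 5 lower after rechallenge (all genes: 14% and 14.3%). SERPINB7 (log2 change 2.34 ± 0.34 SE, edgeR adjusted p = 2.11e-06), SERPINE2, SERPINB2 and SERPINB8 were among the higher ones. SERPING1 (log2 change -5.89 ± 0.44 SE, edgeR adjusted p = 6.21e-11), SERPINF1 (log2 change -4.35 ± 0.51 SE, edgeR adjusted p = 5.18e-08), SERPINA1, SERPINB1 and SERPINB6 were the lower ones. The response to the second exposure differed from that to the first, as an interaction, for 4 serpins with a higher and 9 with a lower change (all genes: 23.3% and 25%). Without the 2 libraries that stood apart, SERPINA3 and SERPINA9 were added to the called interactions (adjusted p = 0.0231 and 0.0326). For SERPINB2 the first week of drug raised the level from untreated by 5.62 and the second lowered it from the holiday, by a log2 change of -2.49 (log2 change -8.11 ± 0.15 SE, edgeR adjusted p = 6.9e-27 for the difference). These responses start from groups at different levels, and both contrasts end at similar CPM, 236 ± 5.59 at week 1 and 245 ± 26.0 after rechallenge (SD, n = 3 each).

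The 15 serpins that were not tested had 0 to 56 counts each over all 29 libraries. SERPINA6, the cortisol carrier, had 56, SERPINC1, antithrombin, 32, SERPINE3 30 and SERPINB5, or maspin, 22. Another 8 had 2 to 12 counts, and 3 had none. SERPINE3 shares 30.3% of its exon bases with INTS6 on the opposite strand, and reads there cannot be attributed to 1 gene. A count of 0 allows up to 3 counts, a limit that covers counting error only, and levels below it were not detectable at this depth.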

How the data were processed

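Read counts per gene were taken as the authors deposited them, as whole numbers without normalization, in 1 table of 60675 genes and 29 libraries. Per the submitters' processing notes, HTSeq 0.6.1, SAMtools 0.1.18, HISAT2 2.0.3 and Trimmomatic 0.32 were among the tools and GRCh38 was the build. Per the labels' protocols, libraries were made from 100 ng of total RNA with a NuGEN kit for polyadenylated RNA. Which annotation was counted, and whether by strand, is not given in the sources used here. No row was blank or a summary row. Counts do not separate the added from the endogenous BRAF transcript.

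Samples were grouped by their GEO labels. The serpins, the 4 gene lists (target proteases, cofactors and receptors, collagen folding, other inhibitors) and the cell type markers were chosen with earlier results of these data known. edgeR 4.0.16 in R 4.3.3 (limma 3.58.1) was run on all 29 libraries with TMM factors, its default filter on low counts (20494 genes kept, 21 serpins among them), 1 term per group and no replicate block, and Benjamini-Hochberg adjustment over all tested genes in each of 12 comparisons. Serpins reaching 1 CPM in a group were described one by one, except 1 that is not reported here and stands only in the counts, and up to 4 genes per list and comparison were named by size of change among those called with at least 5 CPM in a group. Against a group at 0, a fold is a bound computed with 3 counts over that group, and intervals and floors cover counting error only. The alternatives were a replicate block, RLE factors, all genes without a filter, the libraries of the compared groups only, DESeq2 1.42.0 and leaving out each library, and leaving out the 2 libraries that stood apart was added after seeing the data. The edgeR step was tested on simulated counts. Exons and positions came from GENCODE 29 and promoters from RefSeq on GRCh38.p14, which had an entry for 27 of 35 symbols. Figures were drawn with matplotlib 3.10.9.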

Additional observations from a re-analysis of the deposited data

Results flagged for a closer look

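The change on rechallenge (week 3 rechallenge minus first holiday) differed from the change in the first week of drug (week 1 minus untreated) for 13 of 21 tested serpins, by edgeR's interaction contrast at an adjusted p under 0.05. Of all genes tested, 23.3% had a higher and 25% a lower interaction. The interaction is the second log2 change minus the first, and the 2 changes start from groups at different levels. Among those named here it was negative for SERPINB2 (-8.11), SERPINA1 (-3.51), SERPINI1 (-3.43), SERPINB7 (-2.53), SERPINE2 (-2.25), SERPIND1 (-2.2) and SERPINB8 (-1.57). It was positive for SERPINF1 (3.61), SERPINA5 (1.4), SERPINB1 (0.65) and SERPINB6 (0.35). A negative value can be a larger fall, as for SERPINA1 (-2.31, then -5.82), or a smaller rise, as for SERPINB7 (3.44, then 0.91). SERPINB10 was also called, and no size is given because the untreated libraries had no count. The interactions of SERPINF1 and SERPINB6 lost their call when single libraries were left out (adjusted p = 0.0869 without replicate 2 of week 3 rechallenge and 0.0964 without replicate 1 of it).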

How the results depend on the processing

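The number of serpins called stayed within 1.5 times its reported value under every alternative run. Leaving out each library in turn gave 8 to 12 calls for BRAF-V600E against vector (10 reported), 12 to 15 for 20 h (15), 15 to 16 for week 1 against untreated (15) and against 20 h (15), 11 to 13 for week 4 continuous against week 1 (12), 17 to 19 for the first holiday against continuous drug (19), 18 to 19 for it against untreated (19), 18 to 20 for the second holiday (20), 18 to 20 for rechallenge against the first holiday (20), 10 to 11 against week 3 continuous (10), 9 to 13 between holidays (12), 12 to 14 for the interaction (13) and 21 to 22 for any group (21). Over 6612 such values of described serpins, 75 lost their call, 58 gained one and 1 reversed: SERPINA5 from week 1 to week 4 of continuous drug, -0.08 without replicate 1 of week 4 continuous (adjusted p = 0.902), with leave-one-out values of -0.08 to 1.08. With DESeq2 5 of 227 values lost and 6 gained a call. Without the count filter 4 of 228 lost and 4 gained, with the compared groups alone 5 of 193 lost and 6 gained, and with RLE factors none of 228 lost and 3 gained. Same-numbered libraries did not deviate together (3 of 126 pairs had a correlation over 0.1, with a median of -0.001). A lack of shared deviation cannot show whether same-numbered samples were handled together. The replicate block gave 14 calls at 20 h, 14 for the interaction, 10 between holidays, 18 for the first holiday against untreated and 19 for the second holiday, and the reported count elsewhere. Serpins below a few counts per library, such as SERPINA9 and SERPINB10, are limited by depth.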
